A study of Homo sapiens with 19 samples.

Results

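Chromosome condensation and mitosis genes are described here as 38 named genes of condensin, cohesin, the SMC5/6 complex, the kinetochore, the spindle and the mitotic cell cycle. They were chosen by gene symbol, and all 38 had rows in the splicing tables, among 11998 genes with rows. The tables hold 562 distinct splicing events of these genes, of which 425 are cassette exon events. A gene level could be formed for 36 of them, among 9209 genes. RAD21, the cohesin subunit cut by separase, and TTK, the checkpoint kinase also known as MPS1, had no cassette exon measured in all 3 comparisons and so have no such level.

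HMLE/Twist-ER cells are human mammary epithelial cells, immortalized with TERT, that carry the transcription factor Twist fused to an estrogen receptor. All groups carry this fusion. Cells without treatment are the epithelial state (EPI), and 20 nM tamoxifen, which activates the fusion, brought cells through the epithelial–mesenchymal transition (EMT) to the mesenchymal state (MES). RNA-seq covered 3 controls with a non-specific shRNA in each state, 3 samples with an AKAP8 shRNA in EPI cells and 2 with an AKAP8 shRNA in MES cells, and eCLIP of AKAP8 covered both states. The labels do not say which AKAP8 shRNA a library carries. Each library gave between 31258177 and 40852217 junction reads over cassette exons. The libraries of a group are named below by their place in the deposited lists. The EPI controls serve both the EPI knockdown and the EMT comparison. In splicing events the first and second MES controls serve both the MES knockdown and the EMT comparison, and at gene level all 3 do. These comparisons are therefore not independent of each other. Adjusted p-values at gene level come from limma and those of splicing events from a quasi-binomial test with limma moderation, and they measure the spread between these samples alone.

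The labels were checked on their markers. AKAP8 had 244, 310 and 245 scaled reads in the EPI controls and 121, 98.8 and 125 after knockdown in EPI cells. In MES cells it had 382, 196 and 248 scaled reads in the controls and 108 and 122 after knockdown. The knockdown libraries lay below every control of their state. The log2 fold change was -1.20 in both states (SE 0.25 in EPI and 0.28 in MES). Its adjusted p was 0.0664 in EPI cells, which missed the threshold of 0.05, and 0.0322 in MES cells. Removing each library's trend on GC content gave -1.25 in EPI cells (adjusted p = 0.0273), which passed. Leaving out the second library of both EPI groups gave -0.99 there (adjusted p = 0.207). Both alternatives were chosen after seeing the data. The MES value missed the threshold in 5 of the 11 leave-one-out fits, those without the first EPI control, the first or the third MES control, or either MES knockdown library (adjusted p from 0.0563 to 0.177). Between the control groups, all 5 measured epithelial markers of 10 listed fell, among them CDH1 (E-cadherin) by 4.34 and ESRP1, an epithelial splicing factor, by 4.05 on the log2 scale. All 7 measured mesenchymal markers of 10 rose, among them ZEB1, a repressor of epithelial genes, by 4.29 and VIM (vimentin) by 1.77.

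Mitosis depends on ring-shaped SMC protein complexes. Condensin folds chromatin into compact mitotic chromosomes, cohesin holds the sister chromatids together until anaphase, and the SMC5/6 complex acts in DNA repair and in the resolution of joined sister molecules. Kinetochores tie chromosomes to spindle microtubules, the spindle checkpoint delays anaphase until they are attached, and motors and their partners build the spindle and the cleavage furrow. AKAP8 (AKAP95) is a zinc finger protein of the nuclear matrix that anchors protein kinase A, binds RNA and is known to recruit condensin to mitotic chromosomes. The RNA of some of these genes, such as CDK1 and TOP2A, rises and falls with the cell cycle, and in bulk RNA fewer dividing cells and less RNA per cell cannot be told apart.

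Several libraries stood apart in the levels of these genes. For each gene, the log2 level of a library was compared with the mean of its group, and the median of that deviation over the 36 genes was taken. It was -0.33 in the second EPI control and -0.57 in the second EPI knockdown library, which held the lowest level of their group for 26 and 28 of the 36 genes. The second MES control (-0.17) was likewise lowest for 26 genes. The second MES knockdown library (-0.11) lay below the first for 28 genes. The third EPI control (0.28), the third EPI knockdown library (0.41) and the third MES control (0.21) lay on the other side and held the highest level for 25, 28 and 26 genes. Over all genes the medians of these libraries lay within 0.04 of 0, where the scaling holds them. The medians of the 36 genes lay inside the spread over all genes. Its 5th to 95th percentiles were -0.54 to 0.36 in the second EPI control and -0.84 to 0.61 in the second EPI knockdown library. Within the EPI libraries named here the deviation of a gene moved with the GC content of its transcript. Spearman's rho across 8185 genes, which share each library and are not independent, was 0.61 and 0.62 in the second EPI control and the second EPI knockdown library and -0.51 and -0.61 in the third ones, but -0.20 in the third MES control. The mitosis genes have AT-rich and long transcripts, with a median GC content of 39.9% against 47.3% for all genes and a median length of 5304 against 3722 bases. The part of GC content or transcript length in these deviations was not tested. Taken over the 11 libraries of all groups, the median deviation had an SD of 0.34. It lay between -0.57 and 0.41 in the EPI libraries and between -0.17 and 0.21 in the MES libraries, so the SD is not that of a single state. The medians over these genes between groups, given below, were 0.15, -0.35 and 0.18. They come from differences between group means, and the SD is that of single libraries, so it is not their error. CENPE, a kinetochore motor that carries chromosomes to the spindle equator, had the widest spread, with 1057, 546 and 2586 scaled reads in the EPI controls, 1732, 323 and 2844 in the EPI knockdown libraries, 1114, 833 and 2850 in the MES controls and 583 and 609 in the MES knockdown libraries.

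**Figure D1:**
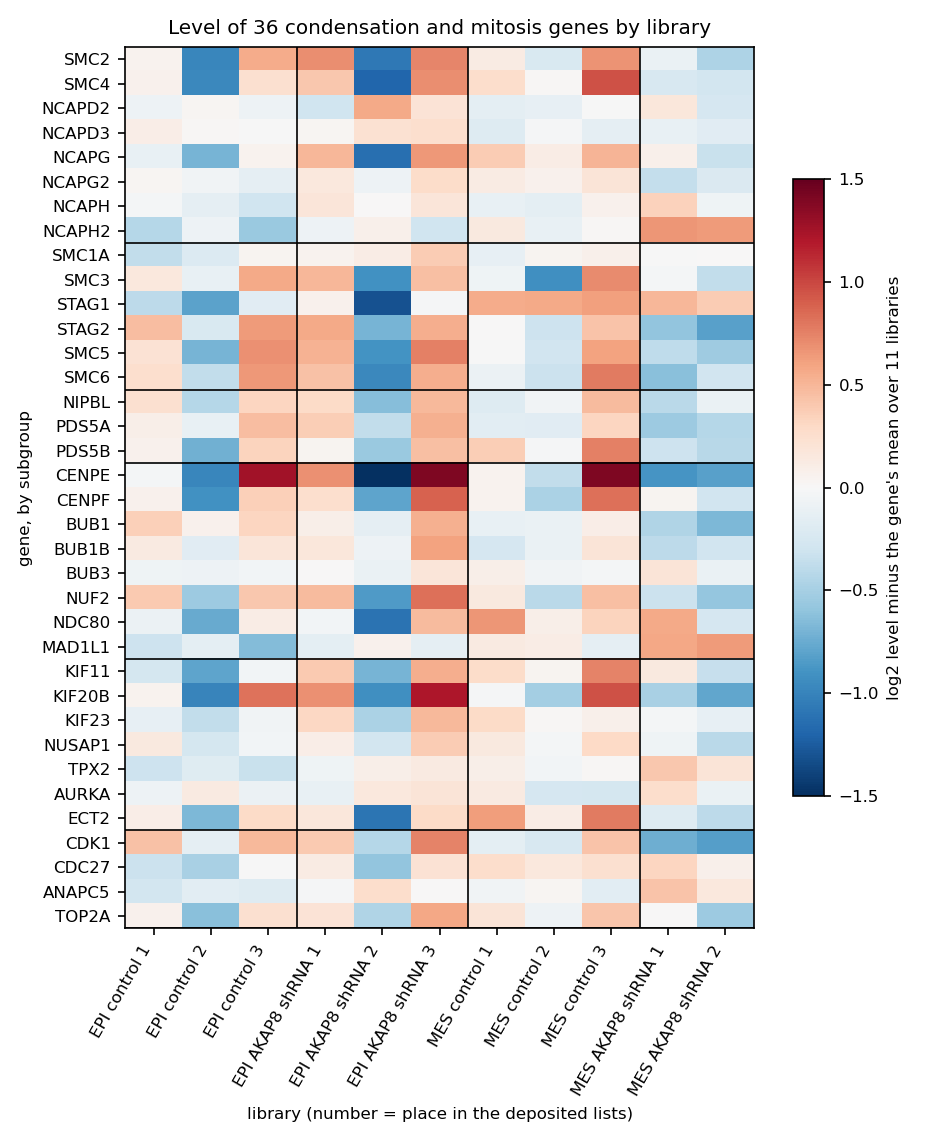
Colours show the log2 level of each of 36 genes in each of 11 libraries, minus the mean of that gene over all libraries, with genes ordered by subgroup and libraries by group and by place in the deposited lists (values past the ends of the colour scale take its end colours). The second EPI control and the second EPI knockdown column are mostly blue and the third ones mostly red, so that the EPI libraries of 1 group differ widely from each other.

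Splicing of these genes was compared as the percent spliced in (PSI), the share of transcripts that include a segment, corrected for segment length. An event was called at an adjusted p under 0.05 and a difference in PSI (∆PSI) of at least 0.1, that is 10 percentage points. Between the states, 4 of 401 tested events of these genes were called, where 1.59% of 67451 events of all genes were. After knockdown, 1 of 381 was called in EPI cells, where 0.0492% of 65008 events of all genes were, and 0 of 351 in MES cells, where 0.054% of 59288 were. In MES cells 7 of the 351 events (1.99%) had an unadjusted p under 0.05, against 3.88% of all events, and limma on the logit of PSI called none of them. Most events of these genes barely moved. The median absolute ∆PSI was 0.47 percentage points in the EPI knockdown, 0.55 in the MES knockdown and 0.42 in EMT, against 0.78, 1.01 and 0.93 over all events. Of the 4 called exons, all have a length divisible by 3, a property that 47.1% of these genes' cassette exons and 42.3% of all 43197 cassette exons in the EMT table share.

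The largest called difference was in SMC5, an SMC subunit of the SMC5/6 complex. It concerned a 45-base cassette exon at chr9:72961521-72961565 (GRCh37, plus strand), which is coding in 1 annotated transcript of SMC5. The exon is shown with 30 intron bases on either side, since it is the event of these genes that differed most, and its bases are in capitals. Neither the exon nor the 200 intron bases on either side hold a run of 3 or more G, the kind of sequence found under the AKAP8 peaks described further on. The called exons of KIF23 and CENPE, described below, do hold such runs inside them or in these intron bases. No peak lay within 1000 bases of those exons or of the SMC5 exon.
SMC5 45-base exon: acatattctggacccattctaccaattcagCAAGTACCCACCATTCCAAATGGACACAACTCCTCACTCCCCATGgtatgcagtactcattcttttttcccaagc

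The PSI of this exon was 49.5%, 37.6% and 52.6% in the EPI controls and 89.8%, 87.9% and 86.0% in the MES controls. No MES control came near an EPI control. The mean rose from 46.6% ± 7.95 to 87.9% ± 1.88 (SD, n = 3 each), a ∆PSI of 41.3 percentage points (SE 4.72, adjusted p = 4.77e-10), with 86 to 218 reads in each library. Leaving out any library gave 36.8 to 44.4 percentage points and kept the call, as did limma on the logit of PSI (adjusted p = 0.00122).

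In EPI cells with AKAP8 knockdown, the exon stood at 85.4%, 48.0% and 69.9%. The second library lay within the range of the controls, so the groups overlapped. The mean was 67.8% ± 18.8 (SD, n = 3), a ∆PSI of 21.2 percentage points (SE 11.8, adjusted p = 0.0284). This was the call of the EPI knockdown among these genes, and it depended on single libraries. It was lost in limma on the logit of PSI (adjusted p = 0.912). Leaving out any library but the second knockdown library also ended it (adjusted p from 0.0923 to 0.820). The ∆PSI was then 12.4 percentage points without the first knockdown library and between 16.7 and 24.2 in the other fits. Without the second knockdown library it was 31.1 percentage points. Without the second EPI control and the second EPI knockdown library together, an alternative chosen after seeing the data, it was 26.6 percentage points (adjusted p = 0.00813). The tables also hold the exon in EPI cells with another upstream exon, on an average of 59.5 reads, and there the ∆PSI was -2.74 percentage points (adjusted p = 0.999). In MES cells with knockdown the exon stood at 100% and 96.2%, above all MES controls, with a ∆PSI of 9.25 percentage points against the 2 controls of those tables (SE 2.12, adjusted p = 0.763), which missed the threshold. The knockdown differences of EPI and MES cells differed by -11.0 percentage points (adjusted p = 0.749), which did not pass. This test used all 3 MES controls, against which the MES difference was 10.2 percentage points. The level of SMC5 RNA itself gave a log2 fold change of 0.04 in EMT (SE 0.41, adjusted p = 0.962).

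KIF23 encodes the kinesin of the centralspindlin complex, which organizes the central spindle and the site of cytokinesis, and 2 of its coding exons differed between the states. The first, of 312 bases, lies at chr15:69733107-69733418 and the second, of 42 bases, at chr15:69717621-69717662 (GRCh37, plus strand). Both are shown as they meet their introns, with exon bases in capitals, the long exon by its first and last 20 bases.
KIF23 312-base exon, start: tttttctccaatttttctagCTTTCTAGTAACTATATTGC
KIF23 312-base exon, end: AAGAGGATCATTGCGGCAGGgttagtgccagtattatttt
KIF23 42-base exon: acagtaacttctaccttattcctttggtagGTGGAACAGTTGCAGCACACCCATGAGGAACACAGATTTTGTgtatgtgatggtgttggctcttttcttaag

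The 312-base exon had a PSI of 47.2%, 53.6% and 45.4% in the EPI controls and 20.2%, 22.7% and 33.0% in the MES controls. The groups did not overlap. The mean fell from 48.7% ± 4.34 to 25.3% ± 6.76 (SD, n = 3 each), a ∆PSI of -23.4 percentage points (SE 4.64, adjusted p = 1.60e-06). This call was kept when any library was left out but not in limma on the logit of PSI (adjusted p = 0.192). With AKAP8 knockdown the exon stood at 36.0%, 67.4% and 53.1% in EPI cells, on both sides of the controls. In MES cells it stood at 25.9% and 33.2%, above the 2 controls of that comparison (∆PSI 8.04, adjusted p = 0.763). These values lay on both sides of the third MES control (33.0%), which is not in that comparison. Another event of this exon in MES cells, on an average of 68.8 reads, had a ∆PSI of -1.45 percentage points (adjusted p = 0.763). The same exon is also counted as mutually exclusive with the next exon, at chr15:69737129-69737380. That event shares its reads and fell by 6.03 percentage points in EMT (adjusted p = 0.0219), under the required 0.1.

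The 42-base exon of KIF23 had a PSI of 74.0%, 67.5% and 71.1% in the EPI controls and 57.8%, 61.2% and 54.0% in the MES controls, again without overlap. The ∆PSI was -13.2 percentage points (SE 2.80, adjusted p = 0.0455). After knockdown it stood at 77.1%, 73.4% and 75.0% in EPI cells and at 65.9% and 55.4% in MES cells. Close to the threshold, this call was lost in each of the 6 fits that left out a library, although the difference stayed between -11.4 and -14.9. It was also lost without the robust option of the moderation (adjusted p = 0.0564) and in limma on the logit of PSI (adjusted p = 0.553). The place in the list as a block ended it too (adjusted p = 0.0773).

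The fourth called exon is in CENPE, with 291 coding bases at chr4:104060946-104061236 (GRCh37, minus strand). Its edges are shown in the direction of transcription, with exon bases in capitals.
CENPE 291-base exon, start: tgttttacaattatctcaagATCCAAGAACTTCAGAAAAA
CENPE 291-base exon, end: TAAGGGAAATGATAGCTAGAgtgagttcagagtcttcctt

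Its PSI was 18.6%, 23.8% and 18.7% in the EPI controls and 6.17%, 6.38% and 7.69% in the MES controls. These groups were well apart relative to their spread, but the event rested on 43 to 143 reads in a library. The ∆PSI was -13.6 percentage points (SE 1.79, adjusted p = 0.0464). The call was lost in all 6 leave-one-out fits, although the difference stayed between -11.9 and -14.5. It was also lost in limma on the logit of PSI (adjusted p = 0.151) and with the place in the list as a block (adjusted p = 0.0703). In the EPI knockdown libraries the exon stood at 10.3%, 30.8% and 14.9%, where the second value came from 17 reads, and in the MES knockdown libraries at 12.9% and 9.09%.

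A further event narrowly missed the required size. SMC4, the SMC partner of SMC2 in both condensins, has an exon that starts at chr3:160130114 and ends either at 160130241, as in its coding transcripts, or at 160130637, an end annotated in a retained-intron transcript. The last exon bases of both ends are in capitals, followed by the intron from its first bases, a GT in each.
SMC4 5' splice site, short exon: TTGTCAATATTATATgtaagtgccttgatt
SMC4 5' splice site, long exon: GCTTTAAGTTGGGAGgtaggttcacaggta

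Use of the longer end was 15.1%, 15.3% and 22.5% in the EPI controls and 7.23%, 6.49% and 10.4% in the MES controls, without overlap. It fell by 9.58 percentage points (SE 2.72, adjusted p = 4.41e-06), and passed 10 percentage points in 3 of the 6 leave-one-out fits. In the EPI knockdown libraries it was 13.6%, 11.7% and 19.5%, and in the MES knockdown libraries 5.5% and 4.5%. SMC1A, the SMC subunit that pairs with SMC3 in cohesin, was the other event past the adjusted threshold in EMT. Its 146-base exon at chrX:53448845-53448990 was used in 0.19%, 0.97% and 2.51% of transcripts in the EPI controls and in 3.58%, 4.78% and 3.72% in the MES controls (∆PSI 2.80, adjusted p = 0.0429, and 0.0962 with the place in the list as a block). In another event of this exon, on an average of 29.7 reads, the ∆PSI was 12.9 percentage points (adjusted p = 0.544).

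**Figure D2:**
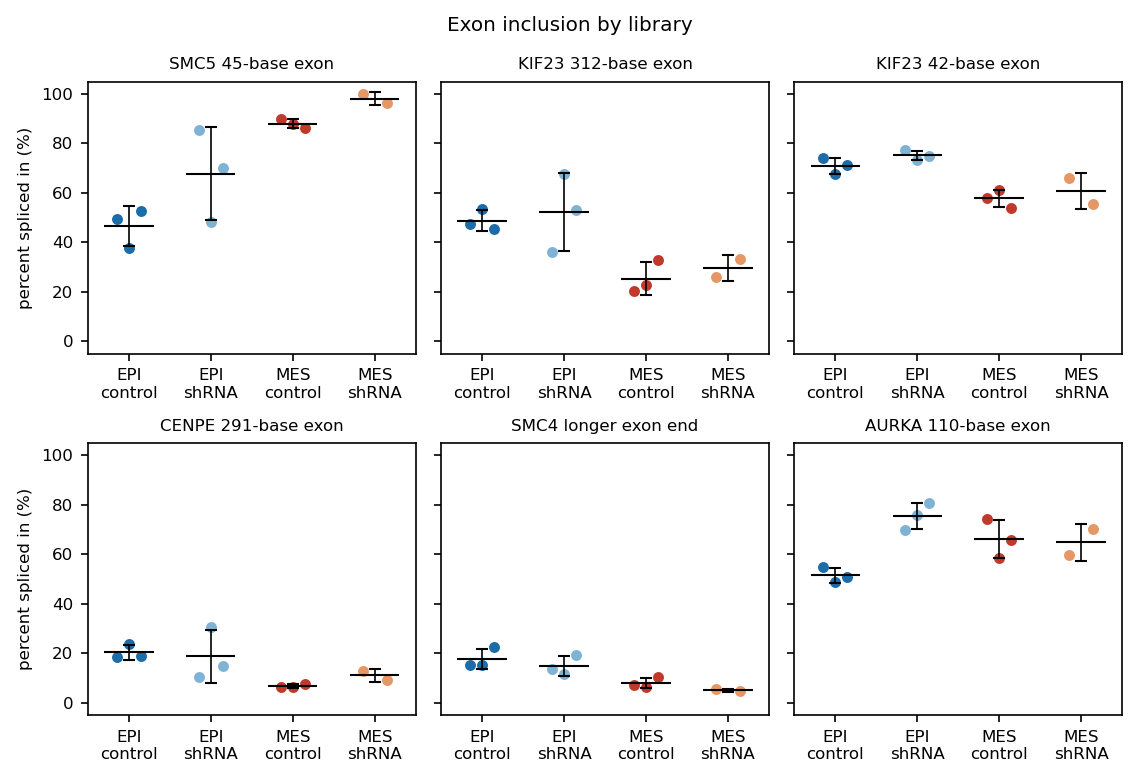
Points give the PSI in percent of 6 events in each library of the 4 groups, and bars give the mean and SD of a group (n = 3, and n = 2 for MES knockdown). The EPI and MES controls are apart for the events of SMC5, KIF23, CENPE and SMC4, whereas the points of the SMC5 exon and of the 312-base KIF23 exon in the EPI knockdown libraries spread over 48.0% to 85.4% and 36.0% to 67.4%.

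AURKA, the mitotic kinase Aurora A, gave the next smallest p-values in the EPI knockdown, though neither passed. Its 110-base exon at chr20:54965612-54965721 (GRCh37, minus strand) is non-coding and belongs to the leader of the transcript. Several leader exons can flank it, and each pairing is an event of its own. In the event with the smallest p-value, PSI was 54.9%, 48.9% and 50.8% in the EPI controls and 69.9%, 76.0% and 80.6% in the EPI knockdown libraries, so that no library overlapped (∆PSI 23.9 percentage points, SE 3.57, adjusted p = 0.296, on an average of 126 reads). The 6 other events of the same exon, on 106 to 300.2 reads, had a ∆PSI between -4.82 and 2.76. A neighbouring 98-base leader exon, in the event that shares skipping reads with it, went from 68.5%, 63.6% and 73.5% to 74.8%, 89.7% and 87.4% (∆PSI 15.4, SE 5.44, adjusted p = 0.492, on an average of 209.8 reads). In its 3 other events, on 263 to 374.5 reads, the ∆PSI lay between -5.97 and -0.38. In MES cells the first of these events stood at 74.2% and 58.6% in the controls and at 59.6% and 70.2% after knockdown. The difference between the knockdown effects of the states was tested for 161 cassette exon events of these genes, and 0 passed the adjusted threshold, where 0.00993% of 30197 events of all genes did. Unadjusted, 10 of the 161 (6.21%) had a p under 0.05 in this test, against 7.46% of all events. They included the AURKA events named above (-25.2 and -20.2 percentage points in MES relative to EPI cells, adjusted p = 0.658 for each) and another event of the 110-base exon with the opposite sign (9.75, adjusted p = 0.662). The other events with the smallest p-values in EPI cells were a 142-base exon of SMC1A (∆PSI 0.44) and a 159-base exon of CENPE (∆PSI -4.14, adjusted p = 0.705 for both). In MES cells they were, beside the SMC5 exon, exons of the checkpoint kinase gene BUB1 (158 bases, ∆PSI -1.71), of the cohesin regulator gene PDS5A (353 bases, ∆PSI -1.58), of the condensin II gene NCAPH2 (102 bases, ∆PSI -2.86) and of ANAPC5, a subunit of the anaphase-promoting complex (102 bases, ∆PSI 0.65), all with an adjusted p of 0.763.

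Gene levels were compared next, as scaled junction reads summed over the cassette exon events of a gene. A read can support several events, and the sums are not per length, so levels are compared between groups and not between genes. In EMT 1 of the 36 genes passed an adjusted p of 0.05, and it also passed an absolute log2 fold change of 1, where 23.9% of 9014 genes passed the first and 12.5% passed both. This gene was STAG1, a cohesin subunit that serves in place of its paralog STAG2. It had 1313, 987 and 1525 scaled reads in the EPI controls and 2529, 2545 and 2627 in the MES controls. All MES controls lay above all EPI controls, with means of 1275 ± 271 and 2567 ± 52.4 (SD, n = 3 each) and a log2 fold change of 1.03 (SE 0.29, adjusted p = 0.0215). The call ended under 3 other settings. Scaling to total reads gave 0.92 and missed both thresholds (adjusted p = 0.0836). Removal of each library's GC trend gave 0.97 (adjusted p = 0.00151) and missed the fold threshold alone. So did the fit without the second library of both EPI groups, with 0.86 (adjusted p = 0.000303). The adjusted threshold was missed in 5 leave-one-out fits, those without the first or second EPI control or any of the MES controls (adjusted p from 0.0546 to 0.0860). STAG2 had a log2 fold change of -0.25 (SE 0.33, adjusted p = 0.628). The 2 MES knockdown libraries held 2418 and 2229 reads of STAG1, against 1796, 694 and 1699 in the EPI knockdown libraries.

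Over the 36 genes, the median log2 fold change in EMT was 0.18, with 25 genes above 0 and 11 below. For all genes, whose median the scaling holds near 0, it was 0.01, with 4605 of 9014 above 0. Without the second EPI control the median of the 36 genes fell to 0.04 and without the third MES control to 0.07. In 9 genes every MES control lay above every EPI control, and in 1, the condensin II gene NCAPD3, below (22.8% and 22.9% of all genes). Beside STAG1, the smallest p-values belonged to CDC27, a core subunit of the anaphase-promoting complex (log2 fold change 0.49, adjusted p = 0.098), KIF11, the motor that pushes the spindle poles apart (0.72, adjusted p = 0.114), TPX2, an activator of Aurora A on the spindle (0.30, adjusted p = 0.123), MAD1L1, which presents the checkpoint protein MAD2 at kinetochores (0.40, adjusted p = 0.130), and NCAPH2, the kleisin of condensin II (0.37, adjusted p = 0.133), none of which passed. With each library's GC trend removed, an alternative chosen after seeing the data, these genes other than TPX2 passed the adjusted threshold: CDC27 (0.43, adjusted p = 0.0110), KIF11 (0.65, adjusted p = 0.0195), MAD1L1 (0.65, adjusted p = 0.00532) and NCAPH2 (0.57, adjusted p = 0.00373). When only the 2 groups compared were fitted, CDC27 (0.49, adjusted p = 0.0189) and KIF11 (0.71, adjusted p = 0.0277) passed it. The place in the list as a block, also chosen after seeing the data, had CDC27 (adjusted p = 0.0288) and KIF11 (adjusted p = 0.00527) pass. Without the second library of both EPI groups, also chosen after seeing the data, CDC27 (0.38, adjusted p = 0.0465) and NCAPH2 (0.51, adjusted p = 0.0231) did, and KIF11 had 0.50 (adjusted p = 0.0857).

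By role, the median log2 fold change in EMT was 0.24 for the 8 condensin genes, -0.01 for the 6 measured cohesin and SMC5/6 genes, 0.03 for the 3 genes of cohesin loading and release (NIPBL, PDS5A and PDS5B), 0.17 for the 8 measured kinetochore and checkpoint genes, 0.30 for the 7 genes of spindle and cytokinesis and 0.22 for the 4 genes of the cell cycle engine with topoisomerase II alpha. SMC3, a cohesin subunit, had the lowest value (-0.29, SE 0.42). The mitotic kinase gene CDK1, with 4320, 2897 and 4464 scaled reads in the EPI controls and 2883, 2702 and 4274 in the MES controls, overlapped between the states, and so did TOP2A, which untangles DNA in mitosis, with 4385, 2715 and 4961 against 4795, 3981 and 5618.

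After knockdown in EPI cells, 0 of the 36 genes passed the adjusted threshold in limma, where 0.255% of all genes did and 0.189% were also past the fold threshold. An unadjusted p under 0.05 was reached by 2 genes (5.56%), against 9.86% of all genes. The first was TPX2, with 1621, 1778 and 1598 scaled reads in the controls and 1919, 2137 and 2201 after knockdown (log2 fold change 0.32, SE 0.13, adjusted p = 0.437). The second was SMC1A, with 2711, 3043 and 3582 against 3618, 3775 and 4541 (0.36, SE 0.15, adjusted p = 0.443). In these genes, in ANAPC5 (0.29) and in NCAPH, the kleisin of condensin I (0.28), each knockdown library lay above each control, which 6.96% of all genes showed. No gene of the 36 lay below in that way, as 7.1% of all genes did. MAD1L1 (0.30) and NCAPH2 (0.26) completed the 6 smallest p-values. When a library was left out, MAD1L1 ranged from 0.16 to 0.40 and NCAPH2 from 0.16 to 0.39. The median over the 36 genes was 0.15, with 29 above 0, beside 4407 of all 9014 genes. This median turned to -0.07 without the second EPI control and to -0.06 without the third EPI knockdown library. It was 0.23 without the second library of both EPI groups and 0.15 with each library's GC trend removed. The condensin median was 0.22, with all 8 genes above 0, and that of cohesin and SMC5/6 was -0.06. NCAPD2, the condensin I subunit that AKAP8 is known to bind, had 5945, 6377 and 5956 scaled reads in the EPI controls and 5117, 9316 and 7208 after knockdown (0.20, SE 0.19, adjusted p = 0.839).

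In MES cells the median lay below 0, and again no gene was called. Here 0 of 36 genes passed the adjusted threshold in limma, where 4.16% of all genes did and 2.27% were also past the fold threshold, and 6 (16.7%) had an unadjusted p under 0.05, against 21.8% of all genes. The median was -0.35, with 27 genes below 0. For all genes, whose median the scaling holds near 0, it was -0.01, with 4609 of 9014 below 0. The median of the 36 genes ranged from -0.49 to -0.20 when a library was left out. Without the second MES knockdown library it was -0.20 and without the third MES control -0.23. It was -0.19 with each library's GC trend removed and -0.17 with the place in the list as a block. Both knockdown libraries lay below all MES controls in 15 genes and above them in 4, which 23.3% and 21.8% of all genes did. CDK1 had 1918 and 1787 scaled reads after knockdown, below the lowest control of 2702 (log2 fold change -0.80, SE 0.31, adjusted p = 0.151). NCAPG2, a condensin II subunit, had 3159, 3019 and 3316 in the controls and 2260 and 2485 after knockdown (-0.42, SE 0.15, adjusted p = 0.129). BUB1 went from 1377, 1384 and 1588 to 1089 and 932 (-0.52, SE 0.20, adjusted p = 0.149). The genes with the opposite sign were led by NCAPH2, with 792, 661 and 721 in the controls and 1129 and 1113 after knockdown (0.63, SE 0.19, adjusted p = 0.079), and MAD1L1, with 342, 338 and 285 against 470 and 487 (0.58, SE 0.21, adjusted p = 0.123). ANAPC5 (0.35, adjusted p = 0.196) and TPX2 (0.28, adjusted p = 0.294) were the other genes above all controls. The EPI libraries take part in the estimate of the spread. With the second library of both EPI groups left out, 5 of these genes passed the adjusted threshold, namely NCAPH2 (0.64, adjusted p = 0.0144), CDK1 (-0.79, adjusted p = 0.0131), NCAPG2 (-0.41, adjusted p = 0.0332), BUB1 (-0.52, adjusted p = 0.0375) and MAD1L1 (0.58, adjusted p = 0.0455), all with a log2 fold change under 1 in size. When only the MES groups were fitted, NCAPH2 (0.65, adjusted p = 0.0318) and CDK1 (-0.78, adjusted p = 0.0342) passed. With each library's GC trend removed none of the 5 did, with values of 0.36 for NCAPH2 (adjusted p = 0.135), -0.49 for CDK1 (adjusted p = 0.0602), -0.26 for NCAPG2 (adjusted p = 0.211), -0.40 for BUB1 (adjusted p = 0.112) and 0.28 for MAD1L1 (adjusted p = 0.326). Leaving out both second EPI libraries, removing the GC trend and the block were alternatives chosen after seeing the data.

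**Figure D3:**
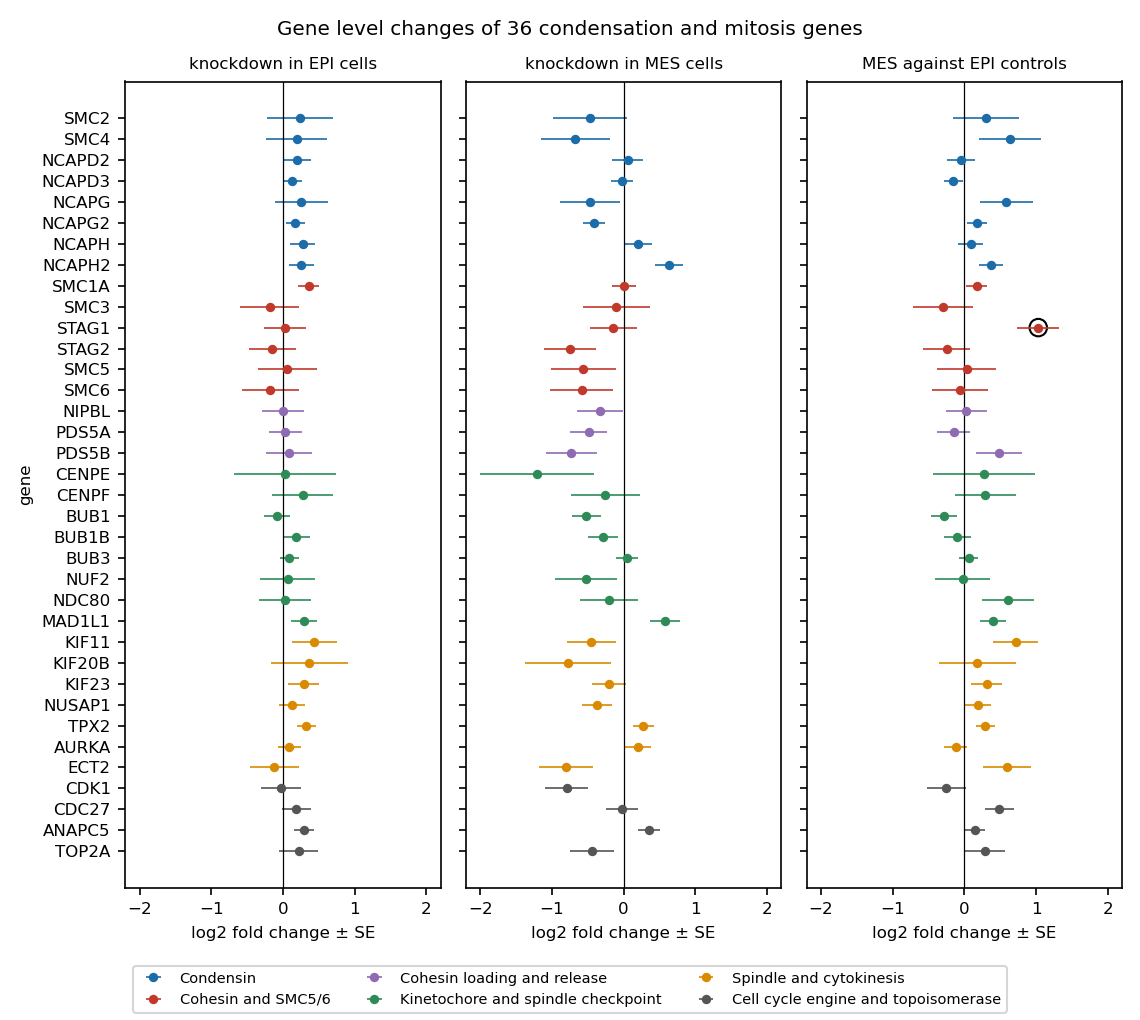
Points give the log2 fold change of 36 genes with its SE (bars) in the EPI knockdown, the MES knockdown and EMT, ordered and coloured by subgroup, with the called gene circled. Most points lie right of 0 in EPI cells (29 of 36) and left of 0 in MES cells (27 of 36), most bars reach or approach 0, and STAG1 in EMT is the circled gene.

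The knockdown effects of the states were compared in the same limma fit. Of the 36 genes, 31 had a lower value in MES than in EPI cells, with a median difference of -0.48. Of all 9014 genes 4582 did (median -0.01), and so did 76 of the 104 other mitosis genes followed below (median -0.21). The medians behind the difference of the 36 genes were not stable. That of EPI cells turned to -0.07 without the second EPI control. That of MES cells shrank to -0.19 with each library's GC trend removed and to -0.17 with the block. In the test of the difference 0 of the 36 genes passed the adjusted threshold, where 0.0111% of all genes did. The only unadjusted p under 0.05, which 6.55% of all genes reached, was that of NCAPG2 (-0.59, SE 0.20, adjusted p = 0.642). RAD21 and TTK, which were not in this fit, can be followed in the single tables. RAD21 had 6577, 5392 and 6690 scaled reads in the EPI controls and 6850, 4889 and 7724 after knockdown, and 7505 and 6762 in the MES controls against 6390 and 5614 after knockdown. TTK had 875, 494 and 945 against 969, 412 and 1444 in EPI cells, and 387 and 244 against 262 and 177 in MES cells, from different events. Both overlapped in EPI cells, with the second library of each group lowest.

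Other genes of mitosis were followed as fixed lists, to set the 38 beside their pathway. Of 104 tested genes of the kinetochore, the chromosomal passenger complex and mitotic kinases, cohesin, and the spindle, 16 passed the adjusted threshold in EMT, 12 higher and 4 lower, beside the 23.9% of all genes. The kinetochore and centromere list gave 7 higher and 1 lower of 30. ZWINT, which links the outer kinetochore to the checkpoint, had 977, 933 and 964 scaled reads in the EPI controls and 2514, 2396 and 1950 in the MES controls (log2 fold change 1.25, adjusted p = 0.000554). CENPL, of the inner kinetochore, rose by 1.04 (adjusted p = 0.00925), but missed the threshold without the second MES control (0.86, adjusted p = 0.0561). In the S phase list 9 of 32 genes (28.1%, beside 23.9% of all genes) rose and 0 fell, among them TYMS, which makes thymidylate (1.53, adjusted p = 4.69e-05), and CLSPN, a mediator of the replication checkpoint (1.07, adjusted p = 0.00905). After knockdown, 0 of the 104 mitosis genes passed the adjusted threshold of limma in EPI cells, where 0.255% of all genes did, and 1 passed it in MES cells, where 4.16% did. In EPI cells 17 of the 104 had an unadjusted p under 0.05, against 889 of all 9014 genes. That gene was WEE1, the kinase that holds CDK1 inactive, with 328, 334 and 350 scaled reads in the MES controls and 871 and 634 after knockdown (1.14, SE 0.19, adjusted p = 0.00676). The call was lost without the first MES knockdown library (0.91, adjusted p = 0.0880). In EPI cells WEE1 had 458, 586 and 474 against 846, 852 and 874, without overlap (0.77, SE 0.17, adjusted p = 0.0776), which did not pass.

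Binding of AKAP8 was read from eCLIP peaks, made by the authors from 2 merged replicates in each state and kept at a log2 ratio of IP over input of at least 2 and a −log10 adjusted p of at least 3. With merged replicates no test between the states was possible. Of 21665 peaks in EPI cells, 164 lay in these genes, 161 of them in MAD1L1, 2 in PDS5A and 1 in NCAPH2. Of 26228 peaks in MES cells, 673 did, all in MAD1L1. A peak was thus found in 7.89% of the 38 genes in EPI cells and 2.63% in MES cells, against 20.8% and 12.6% of 8203 annotated genes tested at gene level. SMC5, KIF23, CENPE, SMC4, AURKA and STAG1 held none, and no peak of these genes lay within 1000 bases of an event named above.

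Peaks in the deposited lists overlap each other, and in MAD1L1 they merged into 89 stretches covering 8140 bases in EPI cells and 373 stretches covering 28190 bases in MES cells. A gene with any peak had a median of 2 and 3 stretches. By number of stretches MAD1L1 was the 6th of 2377 genes in EPI cells and the first of 1481 in MES cells. The gene is long, at chr7:1855429-2272878 (GRCh37, minus strand, 417.4 kb), and an overlapping read-through gene on the same strand shares the sequence. Per length it had 21.3 and 89.4 stretches in 100 kb, and of 1467 genes of 200 kb or more, 3 in EPI and 2 in MES cells were denser. Among genes of any length with a stretch, 483 of 2377 and 124 of 1481 were denser. Of the EPI stretches 84 (94.4%) overlapped an MES peak, whereas 87 of the MES stretches (23.3%) overlapped an EPI peak. Counted as peaks of the 38 genes these shares were 93.3% and 27.5%, against 58.1% and 46.7% of all peaks. MAD1L1 RNA stood at 251, 282 and 200 scaled reads in the EPI controls and 342, 338 and 285 in the MES controls.

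Nearly all the binding was intronic. Of the 164 EPI peaks 143 lay in an intron more than 500 bases from an exon, 16 within 500 bases, 5 in exon sequence that is not coding and 0 in coding exons, and of the 673 MES peaks 608, 50, 15 and 0. Among the peaks of these genes, nearly all of which are in MAD1L1, the 8 with the highest log2 ratio in each state were in that gene, in 4 stretches in EPI cells (log2 ratio 5.41 to 6.40) and 6 in MES cells (5.40 to 6.06). The highest peaks of the leading stretches are shown, with the peak in NCAPH2, as transcribed. Every run of 3 or more G is in capitals, since nearly all peaks hold such a run near their centre. In EPI cells the MAD1L1 peaks lie at chr7:2058346-2058469 (log2 ratio 6.40) and chr7:1936960-1937046 (5.56), in MES cells at chr7:1909098-1909197 (6.06) and chr7:2181196-2181270 (5.76), and the NCAPH2 peak of EPI cells at chr22:50952725-50952827 on the plus strand (3.67).
MAD1L1 peak, EPI, first: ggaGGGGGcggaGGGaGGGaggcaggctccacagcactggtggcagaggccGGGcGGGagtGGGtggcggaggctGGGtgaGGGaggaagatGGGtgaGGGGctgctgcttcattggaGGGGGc
MAD1L1 peak, EPI, second: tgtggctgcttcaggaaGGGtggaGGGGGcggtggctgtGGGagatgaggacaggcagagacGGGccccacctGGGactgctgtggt
MAD1L1 peak, MES, first: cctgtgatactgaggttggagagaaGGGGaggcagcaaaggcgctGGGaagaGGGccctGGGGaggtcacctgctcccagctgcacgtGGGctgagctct
MAD1L1 peak, MES, second: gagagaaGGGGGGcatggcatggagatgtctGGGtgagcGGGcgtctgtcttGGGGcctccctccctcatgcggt
NCAPH2 peak, EPI: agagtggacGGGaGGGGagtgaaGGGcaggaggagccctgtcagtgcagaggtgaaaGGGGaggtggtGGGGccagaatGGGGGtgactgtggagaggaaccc

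The motif GGG, searched on the transcribed strand in the 50 bases on either side of a peak centre, was present in 100% of the peaks of these genes in EPI cells and 99.3% in MES cells, and in 99.9% and 99.6% of all peaks. In this the peaks of these genes did not stand out. Sequence away from peaks was not searched, so whether GGG is more frequent at peaks than elsewhere in these introns was not tested. MAD1L1 also has the most G runs of the 38 gene bodies, 21 per kb. All genes other than MAD1L1 had a median of 8.45, with ECT2 lowest at 5.86 and NCAPH2 highest at 20.9. PDS5A, which also held peaks in EPI cells, had 8.63.

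**Figure D4:**
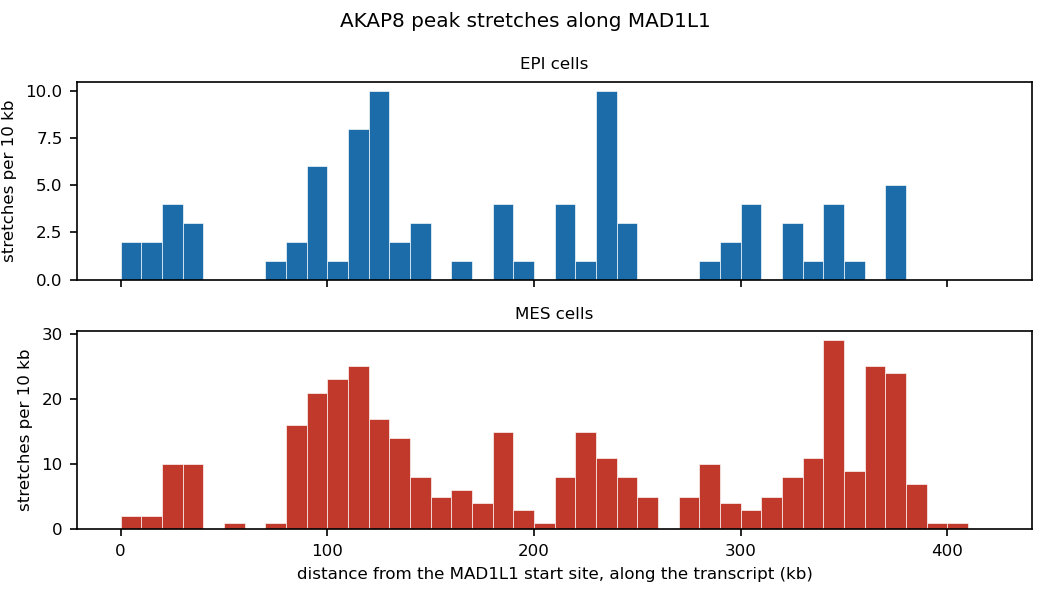
Bars count AKAP8 peak stretches in bins of 10 kb along MAD1L1, by distance in kb from its start site in the direction of transcription, for EPI (top) and MES cells (bottom, with a different vertical scale). Stretches reach 10 in EPI cells, first in the bin at 120 to 130 kb, and 29 in the bin at 340 to 350 kb in MES cells, and 15 and 4 bins hold none.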

How the data were processed

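RNA-seq tables were deposited by the authors, who aligned paired reads to GRCh37 with STAR and counted 5 types of annotated splicing event with rMATS in 15 tables for 3 comparisons. Per the labels' processing notes, featureCounts 1.5.0 and DESeq2 made a gene table. In it the symbol column holds whole numbers and several columns are constant, so its fold changes and q-values, as deposited by the authors, were not used. The deposited tables list the inclusion and skipping junction reads of a group's libraries in 1 field, and the number and effective length of each form served to recompute PSI. A further 30 per-sample PSI columns were not used. The eCLIP lists hold, as deposited by the authors, for each peak the −log10 of its adjusted p and the log2 ratio of IP to input.

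Gene levels were the summed reads of cassette exons present in all 3 comparisons, divided by median-of-ratios size factors, with genes kept if 2 or more libraries reached 10 scaled reads. Log2 values with a pseudocount of 1 from all 4 groups were fitted together with limma 3.58.1 (R 4.3.3, with trend). The third MES control entered from the EMT tables. An average of 20 junction reads per library was required of an event. Events were tested with a quasi-binomial likelihood-ratio F test on the libraries of that comparison's tables. Its dispersion was moderated with squeezeVar of limma, robustly and with a trend on the reads of the rarer form. All p-values were adjusted by Benjamini-Hochberg over all genes, or over all events of a type. Both steps were tested on simulated data. An exact permutation test cannot go below a p of 0.1 for 3 against 3 libraries, or 0.333 for 2 against 2. No count test from another package was run on these reads.

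Exons and peaks were annotated from Gencode v44 in GRCh37 coordinates, a later release than that of the authors. Of 272 cassette exons of these genes 271 had AG before and GT or GC after them on this genome. Python 3.11.15 with pandas 2.3.3, pysam 0.24.0 and matplotlib 3.10.9 was used. Named were AKAP8, every gene or event of the list past its threshold, the 6 genes and 5 events with the smallest p in each comparison, the 8 peaks of these genes with the highest log2 ratio in each state, and called genes of the other lists. Others named for their role were chosen after their values were seen. The 38 genes, the other lists and the rules were chosen with earlier results of these data known.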

Additional observations from a re-analysis of the deposited data

How the results depend on the processing

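The deposited lists do not number the libraries, so that no library could be tied to the replicate number of its label. The place in the list served as a replicate block instead, an alternative chosen after seeing the data. For the 3 places, the deviations of the EPI control and the EPI knockdown library from their group means correlated across 9014 genes at 0.282, 0.58 and 0.493, whereas same-place libraries of other pairs of groups had values between -0.213 and 0.279. With the block, genes called went from 17 to 33 in the EPI knockdown, events called from 32 to 54 in the MES knockdown, and events of the list in EMT from 4 to 2, as the 42-base KIF23 exon (adjusted p = 0.0773) and the CENPE exon (adjusted p = 0.0703) missed the adjusted threshold, as did the SMC1A exon (adjusted p = 0.0962), which was under the required ∆PSI, while the SMC5 exon in EPI cells kept its call (adjusted p = 0.0394). At gene level in EMT, CDC27 (adjusted p = 0.0288) and KIF11 (adjusted p = 0.00527) passed with it. No result reversed its direction together with a call. Among the settings other than leaving out a library, the number of genes of the list called in EMT went from 1 to 0 with scaling to total reads, with the GC trend removed and without the second library of both EPI groups, the last 2 of which were chosen after seeing the data. Genes called in all went from 17 to 2 in the EPI knockdown and from 205 to 309 in the MES knockdown when only the 2 groups compared were fitted, to 41 in the EPI knockdown with the GC trend removed, to 352 in the MES knockdown without the second library of both EPI groups, and to 375 in the MES knockdown and 2153 in EMT with no fold threshold. Events called in all went from 32 to 0 (EPI knockdown), from 32 to 7 (MES knockdown) and from 1072 to 541 (EMT) with limma on the logit of PSI, and those of the list from 1 to 0 in EPI cells and from 4 to 1 in EMT. With no threshold on ∆PSI they were 57, 51 and 1848, and 7 of the list in EMT. With the dispersion trend on all reads they were 49 and 59 in the EPI and MES knockdowns. Peaks kept at a log2 ratio of at least 3 and a −log10 p of at least 5 fell from 164 to 107 in EPI cells, and those shared with the other state from 153 to 85 in EPI cells and from 185 to 104 in MES cells.

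When each library was left out in turn, genes called ranged from 3 to 38 in the EPI knockdown and from 63 to 335 in the MES knockdown, and genes of the list in EMT from 0 to 1. Events called ranged from 18 to 115 (EPI knockdown), 12 to 240 (MES knockdown) and 674 to 1258 (EMT), and events of the list from 0 to 1, 0 to 1 and 2 to 6. The call added in EPI cells, in place of SMC5 without the first knockdown library, was the exclusive exon pair of KIF23, and that in MES cells, without the first knockdown library, was a pair of MAD1L1. The 6 in EMT, without the third MES control, were the SMC5 exon, the 312-base KIF23 exon, the longer end in SMC4, an exon of STAG2, an exon of CENPE other than that of 291 bases, and an alternative exon start in KIF20B. Where a single MES knockdown library remained, it was assumed to vary like the other groups. Some events, such as the CENPE exon, rested on few reads, and the part of read number in their lost calls was not tested. Gene levels cover genes with a measured cassette exon alone.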

Other observations

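The other lists of mitosis genes had the following medians in the MES knockdown, in which 1 of their 104 tested genes, WEE1, passed the adjusted threshold of limma. The list of the chromosomal passenger complex, mitotic kinases and the anaphase-promoting complex had a median log2 fold change of 0.19, with 23 of 29 genes above 0. Cohesin and sister separation had -0.41 with 3 of 14 above 0, the kinetochore and centromere -0.18 with 11 of 30, the spindle and cytokinesis -0.14 with 10 of 31, and DNA replication -0.15 with 11 of 32. The median over all genes, which the scaling holds near 0, was -0.01, with 4405 of 9014 above 0. The lists were not tested against each other. In the EPI knockdown the same lists had medians of 0.23, 0.05, 0.16, 0.15 and 0.19, and no gene of them passed. In EMT, 3 of 31 genes rose and 1 fell past the adjusted threshold in the spindle list, 2 of 29 rose and 1 fell in the passenger and kinase list, and 0 of 14 rose and 1 fell in the cohesin list, where 23.9% of all genes passed.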
